A study of Homo sapiens with 6 samples.

Results

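The genes described here are 36 hypoxia-induced and glycolytic genes, chosen by name among the 54607 rows of a table of gene levels and each found in exactly 1 row. They comprise 15 enzymes of glycolysis, 3 transporters of glucose or lactate, 3 regulators of glycolytic flux, 13 hypoxia targets outside metabolism and the 2 oxygen-regulated subunits HIF1A and EPAS1. The cells were H358, a human lung cancer line with epithelial character. The ESRP knockdown group (3 libraries) was infected with lentiviral short hairpin RNAs that target ESRP1 and ESRP2, splicing regulators of epithelial cells. The control group (3 libraries) received a control knockdown. The libraries of each group are described as biological triplicates of this 1 line. The sources used here do not state culture medium, cell density, oxygen or time after infection. Values are FPKM, fragments counted per unit of transcript length and of library size, so levels can be compared between genes.

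Cells sense oxygen through the hypoxia-inducible factors. In oxygen, prolyl hydroxylases encoded by the EGLN genes mark the alpha subunits HIF1A and EPAS1 for destruction by the VHL ubiquitin ligase. When oxygen is short the alpha subunits persist, pair with ARNT and bind DNA at a short core motif, usually ACGTG or GCGTG. Their target genes bring in glucose, turn it into lactate, hold pyruvate back from mitochondria, clear mitochondria and promote blood vessel growth. HIF1A drives most glycolytic targets, and EPAS1 shares part of the rest. Glycolysis is also read in tumour cells kept in ample oxygen, and several of its genes respond to MYC and other factors. RNA levels do not report the amount of HIF protein, which is set mainly by its stability.

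The windows upstream of the transcription start are shown for BNIP3, PFKFB4, PGK1 and EGLN3, the 4 called members with the highest log2 fold changes, for EPAS1, the only member that fell, and for ENO1, an abundant enzyme gene that was not called. Each line gives the 250 bases before the start, 5′ to 3′ on the gene's own strand, from RefSeq on GRCh38.p14. They are BNIP3 (chr10:131981924-131982173, minus strand), PFKFB4 (chr3:48556804-48557053, minus strand), PGK1 (chrX:78103998-78104247, plus strand), EGLN3 (chr14:33951075-33951324, minus strand), EPAS1 (chr2:46297157-46297406, plus strand) and ENO1 (chr1:8878687-8878936, minus strand). Capitals mark ACGTG or GCGTG on either strand, so that CACGT and CACGC are the same motifs read from the other strand. Matches that overlap are joined.
BNIP3: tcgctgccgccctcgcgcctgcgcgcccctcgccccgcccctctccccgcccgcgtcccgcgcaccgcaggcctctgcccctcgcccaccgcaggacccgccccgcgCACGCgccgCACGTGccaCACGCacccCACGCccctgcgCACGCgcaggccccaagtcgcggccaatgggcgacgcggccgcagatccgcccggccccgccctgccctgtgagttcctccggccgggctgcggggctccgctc
PFKFB4: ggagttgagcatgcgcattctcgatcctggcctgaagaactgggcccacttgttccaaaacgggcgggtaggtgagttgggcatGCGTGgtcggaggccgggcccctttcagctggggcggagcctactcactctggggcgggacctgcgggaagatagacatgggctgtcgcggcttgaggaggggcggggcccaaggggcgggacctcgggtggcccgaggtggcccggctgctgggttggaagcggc
PGK1: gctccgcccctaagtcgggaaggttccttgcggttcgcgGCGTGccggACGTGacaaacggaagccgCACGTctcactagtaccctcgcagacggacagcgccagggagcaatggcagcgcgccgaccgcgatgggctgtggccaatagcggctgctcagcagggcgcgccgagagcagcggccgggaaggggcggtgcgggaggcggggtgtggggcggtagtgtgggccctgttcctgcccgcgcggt
EGLN3: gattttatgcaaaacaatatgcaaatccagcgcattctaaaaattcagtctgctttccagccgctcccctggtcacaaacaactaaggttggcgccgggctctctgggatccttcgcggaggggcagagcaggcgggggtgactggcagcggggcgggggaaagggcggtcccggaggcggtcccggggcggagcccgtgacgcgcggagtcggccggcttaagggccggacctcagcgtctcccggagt
EPAS1: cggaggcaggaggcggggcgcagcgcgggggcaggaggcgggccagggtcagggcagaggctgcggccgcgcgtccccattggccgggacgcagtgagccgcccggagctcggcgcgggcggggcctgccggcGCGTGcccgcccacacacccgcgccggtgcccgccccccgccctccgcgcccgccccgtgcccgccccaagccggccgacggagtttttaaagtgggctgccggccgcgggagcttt
ENO1: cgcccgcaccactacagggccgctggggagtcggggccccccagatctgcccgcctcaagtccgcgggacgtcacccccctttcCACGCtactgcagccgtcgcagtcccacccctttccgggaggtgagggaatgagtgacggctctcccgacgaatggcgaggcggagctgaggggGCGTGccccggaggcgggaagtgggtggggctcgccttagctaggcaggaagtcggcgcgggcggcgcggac

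The BNIP3 window held 6 matches, of which a pair overlap in CACGTG, a palindrome also known as an E-box. The PGK1 window held 3, the ENO1 window 2, the PFKFB4 and EPAS1 windows 1 each and the EGLN3 window 0. Of the 36 members, 32 had at least 1 window in the table, while NDRG1, BNIP3L, VEGFA and SLC2A3 had none. Within the same 250 bases, ACGTG on either strand stood in at least 1 window of 21 of these 32 genes (65.6%), against 21.7% of all 27305 symbols in the table, and either motif in 29 (90.6%) against 47.4%. Many members have several windows, which raises the chance of a match. Per window, ACGTG stood in 24 of 62 member windows (38.7%) and in 18.5% of all 35116 windows. Among the members with a window, ACGTG stood in 10 of the 14 that rose and in 10 of the 15 that were tested and not called. A match is a run of letters and not a measured binding site, and base composition was not compared. The members were chosen as hypoxia-induced and glycolytic genes, so an excess of these motifs is no independent evidence. All 27305 symbols also include genes that were not tested here.

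The depth of the libraries could be read only as estimates from the most common ratio of values below 0.1 FPKM. They ranged from 0.992 to 1.42 times control replicate 1 in the knockdown libraries and up to 1.65 times in the control libraries, and the total depth is unknown. ESRP1 stood at 16.3% and ESRP2 at 54.2% of the control level in the knockdown libraries. Of 7 epithelial markers (EPCAM, CDH1, CLDN4 and 4 keratins), 6 fell, with log2 fold changes down to -0.41, and EPCAM was not called. These calls used the limma threshold given below, by which 10.2% of all rows tested fell, and 13% of rows of at least 10 FPKM. Of the markers of other cell types, the fibroblast genes COL1A2, COL3A1, DCN and PDGFRB, the leukocyte genes PTPRC, CD3E, CD14 and CD79A and the endothelial genes CDH5 and VWF averaged below 1 FPKM. LUM, listed as a fibroblast marker, rose to 32.4 ± 0.93 FPKM in the knockdown libraries, against 22.8 ± 1.3 FPKM in the control libraries (SD, n = 3 each here and in every mean that follows). COL1A1, the other tested fibroblast marker, was not called (log2 fold change 0.092). The only tested leukocyte marker, CD68, and the only tested endothelial marker, KDR, were not called either (log2 fold changes -0.19 and 0.10). The summed FPKM of the epithelial list was 3133 to 3224 in the knockdown libraries and 3632 to 3742 in the control libraries, and that of the 6 fibroblast genes 39.96 to 43.87 in the knockdown libraries and 30.42 to 34.51 in the control libraries. For the 5 leukocyte genes it was 13.14 to 14.64 in the knockdown libraries and 15.6 to 17.09 in the control libraries, nearly all of it CD68. The part of these shifts in the results below was not tested. In bulk RNA, fewer cells of a type and less RNA per cell cannot be told apart, and other effects of the hairpin constructs and effects of reduced ESRP cannot be told apart.

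The comparison asks whether lowering ESRP goes with another level of hypoxia response and glycolysis genes. In the knockdown libraries 16 of 34 tested members rose and 1 fell. The rises were modest, between 1.09-fold for TPI1, an enzyme of glycolysis, and 1.54-fold for BNIP3, a mitochondrial protein that starts the removal of mitochondria. They were shared by both branches, with 10 of 20 tested glucose transport and glycolysis genes and 6 of 12 tested hypoxia targets outside metabolism. The member that fell was EPAS1, which encodes the alpha subunit HIF-2 alpha, at 83.3% of the control level. The tests were made with limma on log2(FPKM + 1) over all 13611 rows that averaged 1 FPKM or more, and a gene is said to rise or fall where the adjusted p was below 0.05. Over all rows tested, 6.54% rose and 10.2% fell, and among the 7419 rows of at least 10 FPKM 8.99% rose and 13% fell. The members' 47.1% and 2.94% are read against these shares. The members that were not tested were PFKL, listed at 0 throughout, and CA9, below 1 FPKM, and each of the other 34 averaged at least 1 FPKM in both groups.

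The members' median log2 fold change was 0.14, against -0.0021 over all rows tested, and 28 of 34 were above 0, against 49.3% of all rows. In 19 members the 3 knockdown libraries all lay above the 3 control libraries, and in 2 (EPAS1 and the aldolase gene ALDOC) all lay below them. Over all rows those shares were 17.3% and 20.9%, or 38.1% in either direction. The glycolytic and transport genes had a median of 0.13 and the hypoxia targets outside metabolism one of 0.21, and each branch had 50% of its tested genes called higher. The members were picked with earlier results of these libraries known, so the counts describe them and are no independent evidence.

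Which genes passed varied when 1 library was left out. Such fits have fewer libraries and so less power, and this was not told apart from the influence of a single library. The count of members that rose was 9 when knockdown replicate 1 was dropped, 11 when knockdown replicate 2 was, 19 when knockdown replicate 3 was and 10 when any control library was. The share of all rows that rose moved too, to 3.56%, 3.36% and 6.24% when knockdown replicate 1, 2 or 3 was dropped and to between 2.96% and 3.61% when a control library was. Of these, the glycolytic and transport members numbered 11 when knockdown replicate 3 was dropped and 4 or 5 when any other library was, and 6 with no filter or without the intensity trend. The targets outside metabolism numbered 5 to 8 over the same fits with a library dropped. Knockdown replicate 3 was the lowest knockdown library for 13 of the 16 members that rose (81.2%), against 49.3% of all 890 rows that rose and 42% of all rows tested. The sum of its listed FPKM was also the lowest, at 585414, against 587645 to 601753 in the other libraries. Whether this sum bears on these counts was not tested. After TPM scaling, which divides each library by its sum, 16 members and 5.74% of all rows rose.

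**Figure D1:**
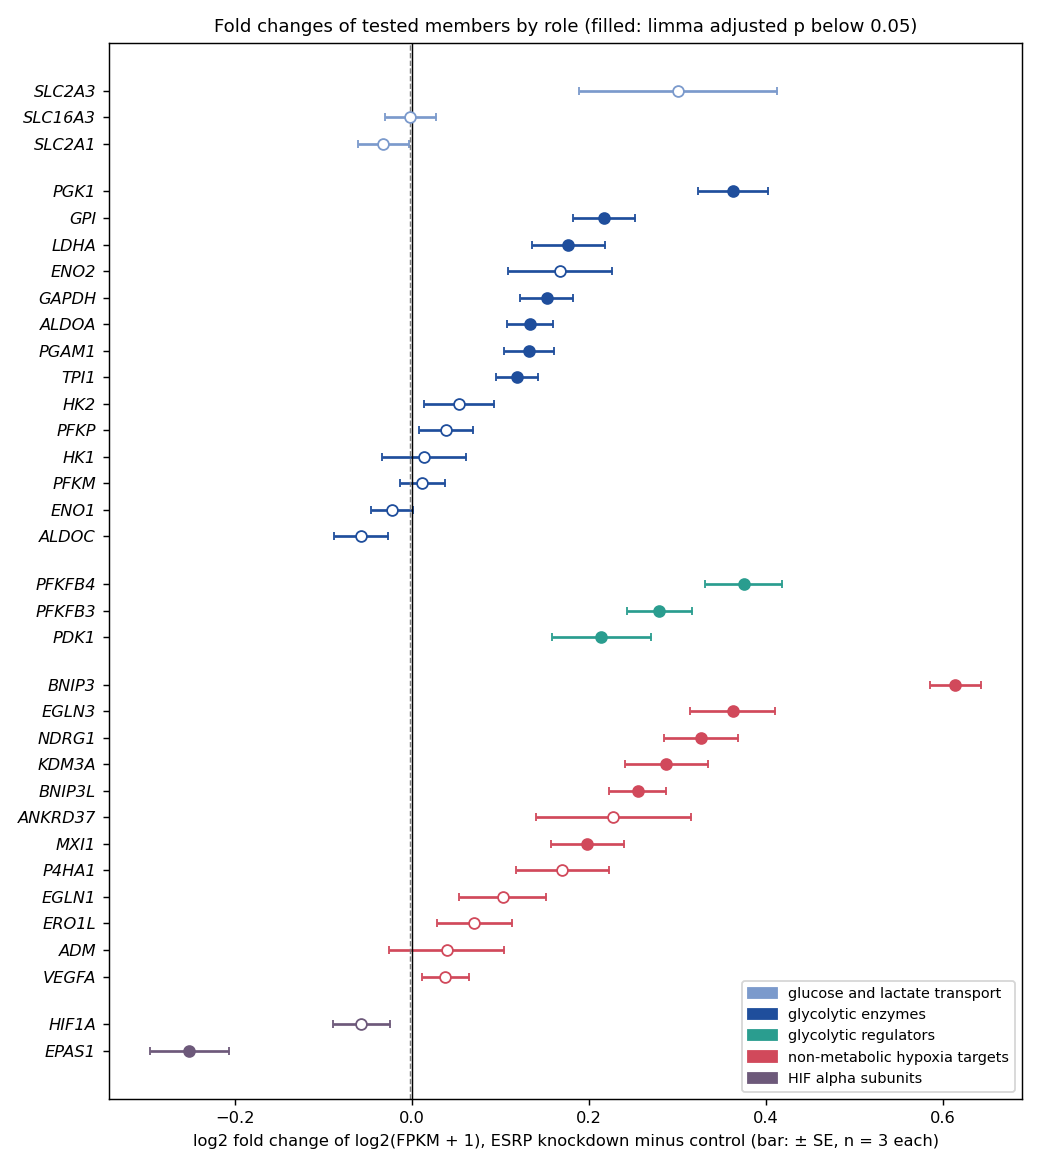
Log2 fold change of log2(FPKM + 1), ESRP knockdown minus control, for the 34 tested members grouped by role (horizontal axis; points are limma estimates, bars ± SE, 3 libraries a group, filled points have an adjusted p below 0.05, the dashed line is the median of all rows tested). BNIP3 stands furthest right at 0.61, all 3 glycolytic regulators are filled, none of the 3 transporters is, and EPAS1 is the only filled point left of 0.

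**Figure D2:**
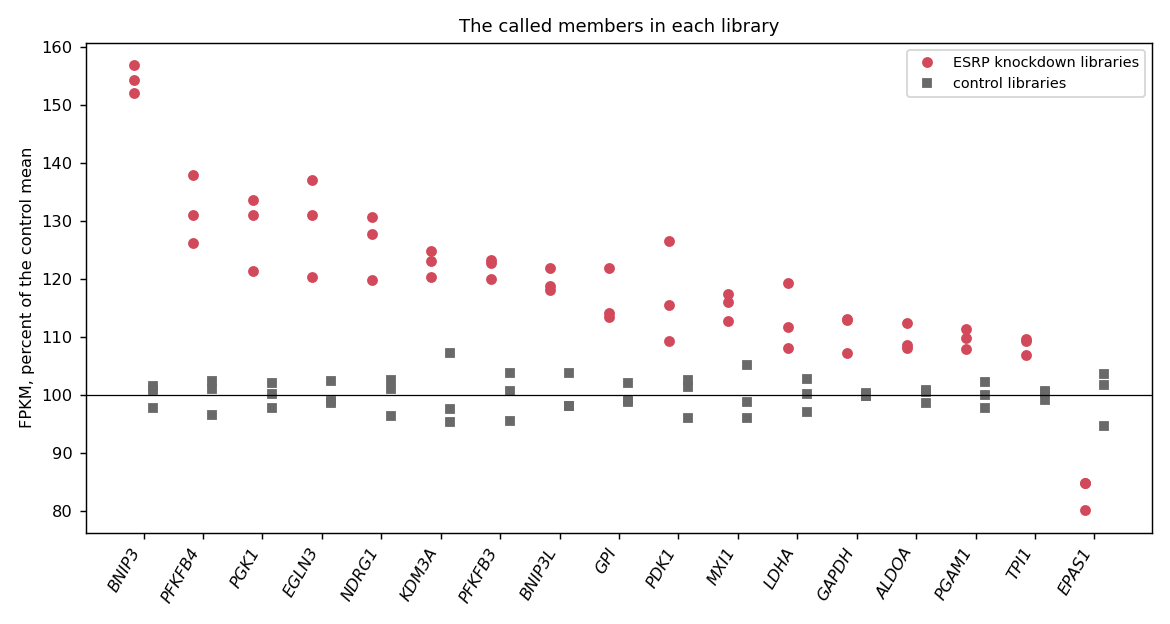
FPKM of the 17 called members in each library as a percentage of the gene's control mean (vertical axis; circles are the 3 ESRP knockdown libraries, squares the 3 control libraries, and the horizontal line marks 100%). In 16 genes every knockdown library lies above every control library, and in EPAS1 every knockdown library lies below.

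The hypoxia targets outside metabolism showed the highest fold change of any member, in the gene of a mitochondrial protein. BNIP3 (ENSG00000176171, hg19 chromosome 10, 133781578 to 133795435) had 56.2, 54.5 and 55.3 FPKM in the knockdown libraries, against 36.1, 36.4 and 35.0 FPKM in the control libraries. The groups were far apart relative to their spread, at 55.3 ± 0.875 and 35.8 ± 0.719 FPKM, and the log2 fold change was 0.61 (SE 0.029, limma adjusted p = 8.7e-05). BNIP3L, a related mitophagy receptor also called NIX, had 75.8, 77.8 and 75.4 FPKM in the knockdown libraries, against 66.3, 62.6 and 62.7 FPKM in the control libraries. It rose by 0.25 on the log2 scale (SE 0.032, limma adjusted p = 0.0027), a smaller change than that of BNIP3. BNIP3 has 39 named pseudogenes in GENCODE v29, counted without separating processed from unprocessed ones. The sources used here do not say how reads that match several of them were counted, so its level is uncertain.

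EGLN3 encodes an oxygen sensor that is itself a hypoxia target and so feeds back on HIF. It had 46.8, 44.7 and 41.0 FPKM in the knockdown libraries, against 34.9, 33.6 and 33.8 FPKM in the control libraries, and rose by 0.36 (SE 0.048, limma adjusted p = 0.0034). EGLN1, the main oxygen sensor in most cells, had 18.3, 18.0 and 16.9 FPKM in the knockdown libraries, against 15.4, 16.9 and 17.0 FPKM in the control libraries. These overlapped, and EGLN1 was not called (log2 fold change 0.10, 95% interval -0.01 to 0.22, adjusted p = 0.2).

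NDRG1, a stress-induced growth regulator widely used as a hypoxia marker, had 47.9, 46.8 and 43.9 FPKM in the knockdown libraries, against 37.0, 37.6 and 35.3 FPKM in the control libraries. The groups did not overlap and the log2 fold change was 0.33 (SE 0.041, limma adjusted p = 0.0028). KDM3A, a histone H3 lysine demethylase that needs oxygen to work, had 29.4, 30.0 and 30.5 FPKM in the knockdown libraries, against 26.2, 23.8 and 23.3 FPKM in the control libraries. It rose by 0.29 (SE 0.046, limma adjusted p = 0.007), and all knockdown libraries were higher. MXI1, which encodes an antagonist of MYC, had 22.7, 21.8 and 22.5 FPKM in the knockdown libraries, against 18.6, 20.4 and 19.1 FPKM in the control libraries. It rose by 0.20 (SE 0.041, limma adjusted p = 0.018), and no longer passed once knockdown replicate 1, control replicate 1 or control replicate 3 was left out (adjusted p between 0.056 and 0.067).

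The other targets outside metabolism did not pass. VEGFA, the vascular growth factor that is among the best known HIF targets, had 182, 178 and 181 FPKM in the knockdown libraries, against 171, 177 and 179 FPKM in the control libraries. These ranges overlapped, and the 95% interval of its log2 fold change ran from -0.02 to 0.10 (adjusted p = 0.38). ADM, which encodes the vasodilator peptide adrenomedullin, had 7.74, 8.87 and 9.35 FPKM in the knockdown libraries, against 8.54, 8.33 and 8.24 FPKM in the control libraries. The knockdown libraries lay on both sides of the control libraries (adjusted p = 0.72). CA9, a cell surface carbonic anhydrase used as a hypoxia marker in tumours, was near the bottom of the scale, at 0.247, 0.172 and 0.258 FPKM in the knockdown libraries and 0.0918, 0.257 and 0.153 FPKM in the control libraries. It was below the level needed for testing. P4HA1, a subunit of the collagen prolyl hydroxylase, stood at 24.8 ± 1.48 FPKM in the knockdown libraries and 21.9 ± 1.04 FPKM in the control libraries. It was not called (adjusted p = 0.065), although the groups did not overlap, and it passed without knockdown replicate 3 (adjusted p = 0.032), after median-ratio scaling, after the GC and length correction and with a minimum of 5 FPKM. ANKRD37, a small ankyrin repeat gene induced by hypoxia, was the lowest tested member at 2.27 ± 0.194 FPKM in the knockdown libraries and 1.79 ± 0.219 FPKM in the control libraries (adjusted p = 0.12). ERO1L, now ERO1A, which reoxidises protein disulfide isomerase in the endoplasmic reticulum, stood at 85.1 ± 4.69 FPKM in the knockdown libraries and 80.9 ± 1.51 FPKM in the control libraries (adjusted p = 0.29). Without knockdown replicate 3 it passed, with an adjusted p of 0.040.

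Neither alpha subunit of HIF rose. EPAS1 had 19.0, 17.9 and 19.0 FPKM in the knockdown libraries, against 23.2, 21.2 and 22.8 FPKM in the control libraries. All knockdown libraries were lower, and the log2 fold change was -0.25 (SE 0.044, limma adjusted p = 0.0095). HIF1A was the more abundant, with 173, 163 and 172 FPKM in the knockdown libraries, against 181, 173 and 175 FPKM in the control libraries. The groups overlapped slightly, and it was not called (log2 fold change -0.06, 95% interval -0.13 to 0.02, adjusted p = 0.26).

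Of 18 tested genes of the oxygen-sensing machinery that are not members, 2 rose (11.1%) and none fell, against 6.54% and 10.2% of all rows tested. They were CITED2, an inhibitor of HIF that competes for the coactivators EP300 and CREBBP, and PKM, the pyruvate kinase that also acts as a HIF coactivator. PKM is counted again below among the other glycolytic isoenzymes, so CITED2 is the only rise particular to this list. CITED2 stood at 34.0 ± 0.418 FPKM in the knockdown libraries and 30.3 ± 0.426 FPKM in the control libraries (log2 fold change 0.16, limma adjusted p = 0.0098). ARNT, VHL, EGLN2, HIF1AN and the coactivator genes were not called.

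All 3 glycolytic regulators among the members rose, while of those outside them PFKFB2, TIGAR, PDK2 and PDK4 were not called and PDK3 fell. PFKFB3 and PFKFB4 make fructose-2,6-bisphosphate, the strongest activator of phosphofructokinase, and both are classical hypoxia targets. PFKFB3 had 36.2, 36.3 and 35.4 FPKM in the knockdown libraries, against 30.6, 29.7 and 28.1 FPKM in the control libraries (log2 fold change 0.28, SE 0.037, limma adjusted p = 0.0033). PFKFB4 had 19.1, 18.2 and 17.5 FPKM in the knockdown libraries, against 14.0, 14.2 and 13.4 FPKM in the control libraries (log2 fold change 0.37, SE 0.044, limma adjusted p = 0.002). Both had all knockdown libraries above all control libraries, and PFKFB4 showed the highest log2 fold change of any glycolytic member. PDK1, the kinase that shuts pyruvate dehydrogenase and so keeps pyruvate out of mitochondria, had 18.7, 20.4 and 17.6 FPKM in the knockdown libraries, against 16.4, 16.6 and 15.5 FPKM in the control libraries. Its groups also stood apart (log2 fold change 0.21, SE 0.056, limma adjusted p = 0.039). PDK1 no longer passed once any library other than knockdown replicate 3 was left out (adjusted p up to 0.13), with no filter (0.11) or without the intensity trend (0.062).

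Of the genes for uptake, hexokinase and phosphofructokinase none was called. SLC2A1, the glucose transporter GLUT1, had 214, 208 and 201 FPKM in the knockdown libraries, against 212, 213 and 212 FPKM in the control libraries, and the 95% interval of its log2 fold change ran from -0.10 to 0.03 (adjusted p = 0.48). SLC2A3, the transporter GLUT3, was low, with 3.89, 4.34 and 3.05 FPKM in the knockdown libraries, against 2.49, 3.02 and 3.03 FPKM in the control libraries. Its log2 fold change of 0.30 had a wide error (SE 0.112, adjusted p = 0.11), and it passed only without knockdown replicate 3 when single libraries were dropped (adjusted p = 0.033). The hexokinases HK1 and HK2, which trap glucose in the cell, stood at 20.6 ± 1.08 and 28.95 ± 1.02 FPKM in the knockdown libraries and at 20.4 ± 0.768 and 27.9 ± 0.999 FPKM in the control libraries. Neither was called (adjusted p = 0.87 and 0.4). The phosphofructokinases PFKP and PFKM, which catalyse the committed step, stood at 47.7 ± 1.46 and 46.1 ± 0.311 FPKM in the knockdown libraries and at 46.4 ± 0.245 and 45.8 ± 0.474 FPKM in the control libraries (adjusted p = 0.43 and 0.79).

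The level of PFKL, the liver-type phosphofructokinase, could not be read. It is listed at 0 in all 6 libraries. Its row is the last of a run of 161 neighbouring rows on chromosome 21 (hg19, 38417830 to 45747259) that are all listed at 0 in every library. The run also holds U2AF1, a spliceosome gene needed in all cells, and the next longest such run on the chromosome has 40 rows. A value of 0 there can therefore be a failed estimate.

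Between these steps, GPI, which isomerises glucose-6-phosphate, had 76.3, 71.5 and 71.0 FPKM in the knockdown libraries, against 63.9, 62.0 and 61.8 FPKM in the control libraries. It rose by 0.22 (SE 0.035, limma adjusted p = 0.0069), and the groups did not overlap.

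Most steps after phosphofructokinase rose, and the rise was largest at phosphoglycerate kinase. PGK1 (ENSG00000102144, hg19 chromosome X, 77320685 to 77384793), which makes the first ATP of the pathway, had 1107, 1129 and 1026 FPKM in the knockdown libraries, against 862, 826 and 847 FPKM in the control libraries. Its log2 fold change was 0.36 (SE 0.040, limma adjusted p = 0.0016), a 1.29-fold difference in mean FPKM with no overlap.

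GAPDH, the dehydrogenase just before it and a common reference gene, had 2753, 2758 and 2614 FPKM in the knockdown libraries, against 2434, 2430 and 2446 FPKM in the control libraries (log2 fold change 0.15, SE 0.030, limma adjusted p = 0.015). ALDOA, the main aldolase, had 863, 834 and 830 FPKM in the knockdown libraries, against 772, 758 and 774 FPKM in the control libraries (log2 fold change 0.13, SE 0.026, limma adjusted p = 0.015). TPI1, triosephosphate isomerase, had 604, 602 and 589 FPKM in the knockdown libraries, against 555, 546 and 552 FPKM in the control libraries (log2 fold change 0.12, SE 0.024, limma adjusted p = 0.015). In all of these the lowest knockdown library was above the highest control library, at 109% to 111% of the control mean. PGAM1, phosphoglycerate mutase, had 77.3, 76.2 and 74.9 FPKM in the knockdown libraries, against 71.0, 67.8 and 69.4 FPKM in the control libraries (log2 fold change 0.13, SE 0.028, limma adjusted p = 0.020). LDHA, the lactate dehydrogenase subunit that favours lactate, had 647, 691 and 626 FPKM in the knockdown libraries, against 595, 580 and 562 FPKM in the control libraries (log2 fold change 0.18, SE 0.041, limma adjusted p = 0.027). Neither gene's groups overlapped.

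These small rises were close to the threshold. GAPDH, TPI1 and LDHA no longer passed once any library other than knockdown replicate 3 was left out (adjusted p up to 0.068, 0.062 and 0.093). ALDOA failed without knockdown replicate 1 or control replicate 1 or 2 (up to 0.060), and PGAM1 when knockdown replicate 1 or 2, or control replicate 2 or 3, was dropped (up to 0.074). With no filter GAPDH, ALDOA and LDHA did not pass (0.13, 0.057 and 0.097), and without the intensity trend TPI1, PGAM1 and LDHA did not (0.055, 0.053 and 0.059). Pseudogenes by name, processed or unprocessed, number 62 for GAPDH, 13 for PGAM1, 6 for LDHA, 4 each for TPI1 and ENO1, 2 for ALDOA and 1 for PGK1. These levels are therefore uncertain where reads were split between copies.

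ENO1, enolase, was an exception among the abundant enzymes, with 2019, 1982 and 1982 FPKM in the knockdown libraries, against 2025, 2016 and 2037 FPKM in the control libraries. It was not called (log2 fold change -0.02, 95% interval -0.08 to 0.03, adjusted p = 0.56), and its sign turned after the GC and length correction (0.0020). ENO2, the neuronal enolase and a hypoxia target, stood at 10.2 ± 0.644 FPKM in the knockdown libraries and 9.01 ± 0.512 FPKM in the control libraries (adjusted p = 0.09). ALDOC, the brain-type aldolase, had 29.2, 28.9 and 30.2 FPKM in the knockdown libraries, against 30.3, 30.8 and 30.9 FPKM in the control libraries. Its knockdown libraries were all lower by a small margin and it was not called (adjusted p = 0.24). SLC16A3, the hypoxia-induced lactate exporter MCT4, had 274, 259 and 264 FPKM in the knockdown libraries, against 263, 265 and 271 FPKM in the control libraries. It was not called either (adjusted p = 0.97).

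Added up, the 14 enzymes with a value came to 8217 ± 193 FPKM in the knockdown libraries and 7518 ± 48.2 FPKM in the control libraries, which is 1.38% ± 0.012 and 1.27% ± 0.012 of all listed FPKM. GAPDH, ENO1 and PGK1 make up most of this sum.

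**Figure D3:**
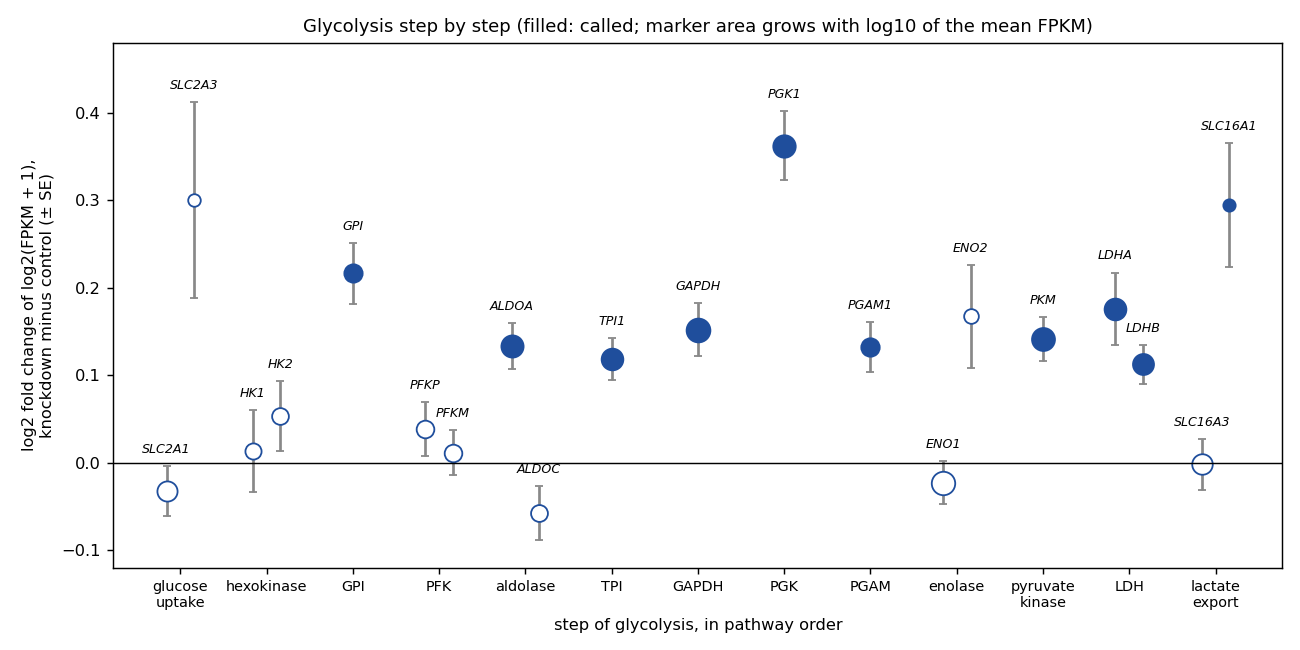
Log2 fold change of log2(FPKM + 1), ESRP knockdown minus control (vertical axis, ± SE, 3 libraries a group), for the genes of each step of glycolysis in pathway order, with pyruvate kinase and the partner isoenzymes LDHB and SLC16A1 added. Filled markers were called and marker area grows with the mean level. The genes of uptake, hexokinase and phosphofructokinase are unfilled, the steps from aldolase to lactate dehydrogenase each hold a filled marker except enolase, and PGK1 is highest at 0.36.

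Related genes were compared in 12 pairs by the log2 ratio of their values with an exact permutation test, in which 3 libraries against 3 cannot give a p below 0.1. In 9 pairs the ratios of the groups did not overlap (exact permutation p = 0.1, two-sided, 0.13 after adjustment over the 12 pairs), so no pair could pass. The share of such pairs among other genes was not computed, so the count has no background to be read against. Of all single rows tested, 38.1% did not overlap between the groups. The BNIP3 to BNIP3L ratio was -0.46 ± 0.043 in the knockdown libraries and -0.82 ± 0.046 in the control libraries. EGLN3 over EGLN1 stood at 1.27 ± 0.040 in the knockdown libraries and 1.01 ± 0.10 in the control libraries. For PDK3 over PDK1, 2 kinases of the same complex, the knockdown ratio was -0.13 ± 0.076 and the control ratio 0.23 ± 0.040, so that PDK1 was the higher in the knockdown libraries and PDK3 in the control libraries. The ratio of ALDOC to ALDOA was lower in the knockdown by 0.19, and those of ENO2 to ENO1, SLC2A3 to SLC2A1, SLC16A1 to SLC16A3 and PFKFB4 to PFKFB3 were higher by 0.19, 0.33, 0.30 and 0.10. The EPAS1 to HIF1A ratio was lower by 0.19, at -3.12 ± 0.0051 in the knockdown libraries and -2.92 ± 0.042 in the control libraries. The ratios of HK2 to HK1, PFKP to PFKM and LDHB to LDHA overlapped between the groups (exact permutation p = 0.8, 0.5 and 0.3). PFKP over PFKL could not be formed.

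**Figure D4:**
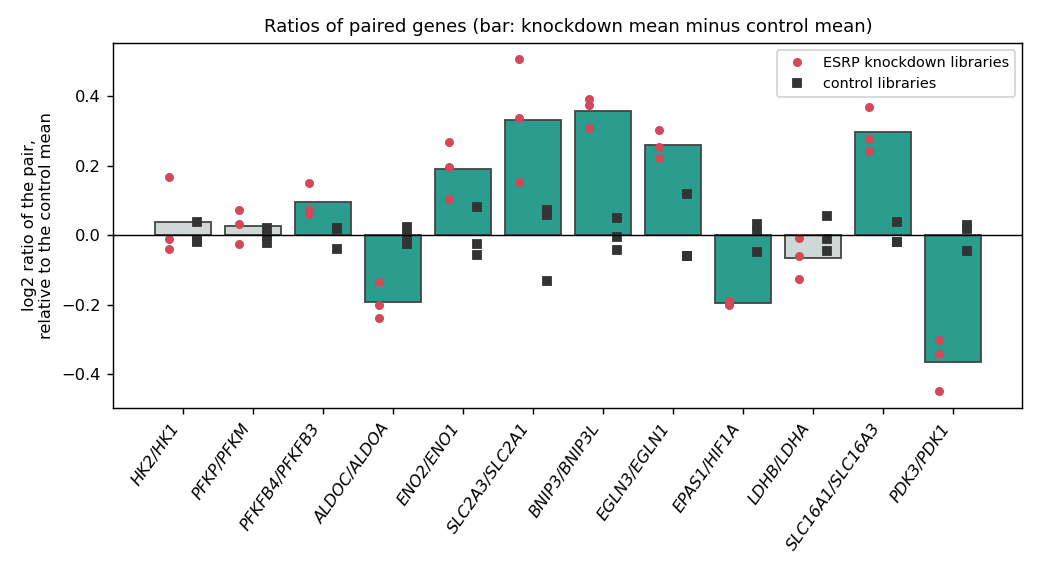
Log2 ratio of paired genes, (FPKM + 1) over (FPKM + 1), relative to the mean ratio of the control libraries (vertical axis; circles are ESRP knockdown libraries, squares control libraries, and bars the knockdown mean minus the control mean, coloured where the groups do not overlap). BNIP3 over BNIP3L, SLC2A3 over SLC2A1 and SLC16A1 over SLC16A3 have the tallest upward bars at 0.36, 0.33 and 0.30, and PDK3 over PDK1 the deepest downward one at -0.36.

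Other glycolytic isoenzymes and regulators were mixed. Of 21 listed, 10 were tested, 3 rose (30%) and 1 fell (10%), against 6.54% and 10.2% of all rows tested. PKM, which makes pyruvate and is listed as PKM2, had 1469, 1457 and 1424 FPKM in the knockdown libraries, against 1310, 1302 and 1330 FPKM in the control libraries (log2 fold change 0.14, limma adjusted p = 0.010), which failed without control replicate 1 (0.053). ADPGK, an ADP-dependent glucokinase, rose to 49.8 ± 2.38 FPKM in the knockdown libraries, against 41.9 ± 1.36 FPKM in the control libraries (log2 fold change 0.24, limma adjusted p = 0.0090). LDHB, the partner subunit of LDHA, rose by 0.11 (adjusted p = 0.016), and failed without knockdown replicate 2 or control replicate 1 or 2 (up to 0.061). BPGM, which diverts glycolysis to bisphosphoglycerate, went the other way, at 4.98 ± 0.338 FPKM in the knockdown libraries and 6.07 ± 0.0792 FPKM in the control libraries. It fell (adjusted p = 0.024) but failed once any library other than knockdown replicate 2 was left out (up to 0.083).

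Of 20 tested genes listed with the tricarboxylic acid cycle 5 fell (25%) and 2 rose (10%), against 10.2% and 6.54% of all rows tested. IDH2, the mitochondrial isocitrate dehydrogenase that uses NADP, stood at 28.4 ± 1.09 FPKM in the knockdown libraries and 35.9 ± 2.07 FPKM in the control libraries (log2 fold change -0.33, limma adjusted p = 0.0049). SUCLG2 and SUCLA2, alternative beta subunits of succinyl-CoA ligase for GTP and ATP, moved in opposite directions. SUCLG2 stood at 32.8 ± 1.28 FPKM in the knockdown libraries and 39.0 ± 0.787 FPKM in the control libraries, and SUCLA2 at 27.1 ± 0.663 FPKM in the knockdown libraries and 23.7 ± 0.519 FPKM in the control libraries (log2 fold changes -0.24 and 0.19, limma adjusted p = 0.0050 and 0.010). SDHD, a membrane anchor of succinate dehydrogenase, rose by 0.13 (adjusted p = 0.036), but failed whichever library was left out (up to 0.10). The other genes of this list that fell, named after their values were seen, were the cytosolic IDH1, OGDH and MDH2. Their log2 fold changes were -0.12, -0.16 and -0.15. Each of them failed in 5 of the 6 fits with a library left out (adjusted p up to 0.11, 0.11 and 0.13), and OGDH and MDH2 failed after the GC and length correction (0.072 and 0.058). In the pentose phosphate pathway 2 of 7 tested genes fell (28.6%) and none rose, against 10.2% and 6.54% of all rows tested. The 2 that fell were TALDO1, transaldolase, and TKT, transketolase, with log2 fold changes of -0.13 and -0.11 (adjusted p = 0.017 and 0.036). TALDO1 failed without control replicate 2 or 3 (up to 0.064), and TKT once any library other than control replicate 2 was left out (up to 0.11) and after the GC and length correction (0.11).

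Around pyruvate, 2 of 14 tested genes fell (14.3%) and 1 rose (7.14%), shares near the 10.2% and 6.54% of all rows tested. PDPR, a regulatory subunit of pyruvate dehydrogenase phosphatase, rose to 10.3 ± 0.463 FPKM in the knockdown libraries, against 7.92 ± 0.161 FPKM in the control libraries (log2 fold change 0.34, limma adjusted p = 0.0033). PC, pyruvate carboxylase, stood at 7.27 ± 0.517 FPKM in the knockdown libraries and 9.12 ± 0.566 FPKM in the control libraries (log2 fold change -0.29, adjusted p = 0.020), and failed when knockdown replicate 2 or 3, or control replicate 1 or 3, was dropped (up to 0.071). PDK3 fell by 0.15 (adjusted p = 0.033) but failed whichever library was left out (up to 0.11). The subunits of the dehydrogenase itself, PDHA1, PDHB, DLAT, DLD and PDHX, were not called. Of 4 tested genes of gluconeogenesis 1 fell (25%) and 1 rose (25%), against 10.2% and 6.54% of all rows tested. FBP1, the bisphosphatase that opposes phosphofructokinase, fell to 4.75 ± 0.345 FPKM in the knockdown libraries, against 6.85 ± 0.501 FPKM in the control libraries (log2 fold change -0.45, limma adjusted p = 0.0057). G6PC3, a glucose-6-phosphatase, rose by 0.17 (adjusted p = 0.027), and failed when knockdown replicate 1 or 2, or control replicate 1 or 2, was dropped (up to 0.080).

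Among 9 tested further transporters 2 rose (22.2%) and none fell, against 6.54% and 10.2% of all rows tested. SLC16A1, the monocarboxylate transporter MCT1, stood at 3.26 ± 0.308 FPKM in the knockdown libraries and 2.46 ± 0.0545 FPKM in the control libraries (adjusted p = 0.029), and failed once any library other than knockdown replicate 3 was left out (up to 0.091). SLC2A8, an intracellular hexose transporter, rose by 0.18 (adjusted p = 0.033), and failed whichever library was left out (up to 0.096). Of 13 tested genes of glycogen metabolism GBE1 alone rose (7.69%, near the 6.54% of all rows), at 20.3 ± 1.26 FPKM in the knockdown libraries and 16.9 ± 0.360 FPKM in the control libraries (adjusted p = 0.014), and failed without control replicate 2 or 3 (up to 0.057). GBE1 encodes the glycogen branching enzyme and is itself a hypoxia target.

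Further HIF targets that are not members were read from a list of 40, of which 34 were tested. In the knockdown libraries 15 rose (44.1%) and 3 fell (8.82%), against 6.54% and 10.2% of all rows tested. The share that fell was thus near that of all rows. The median log2 fold change of the list was 0.13. The list was written with earlier results of these libraries known and shares GBE1 and PPP1R3C with the glycogen list. PLOD2 and PLOD1, lysyl hydroxylases that prepare collagen for crosslinking, had the lowest adjusted p. PLOD2 had 54.6, 50.05 and 50.2 FPKM in the knockdown libraries, against 39.3, 39.2 and 39.0 FPKM in the control libraries (log2 fold change 0.39, limma adjusted p = 0.0011). PLOD1 had 72.1, 71.5 and 70.3 FPKM in the knockdown libraries, against 61.0, 59.3 and 59.5 FPKM in the control libraries (log2 fold change 0.25, limma adjusted p = 0.0014). Both sets of libraries were well apart. FAM162A, a mitochondrial protein induced by hypoxia, stood at 63.9 ± 2.47 FPKM in the knockdown libraries and 50.9 ± 1.24 FPKM in the control libraries, and FAM13A at 18.1 ± 0.358 FPKM in the knockdown libraries and 14.0 ± 0.730 FPKM in the control libraries (log2 fold changes 0.32 and 0.35, limma adjusted p = 0.0018 and 0.0028). The other 11 rises, GBE1 above among them, had log2 fold changes between 0.13 and 0.47. How each of them fared with 1 library left out is not given here. Over all further lists together 25 genes rose and 14 fell, and with 1 library left out 15 to 23 rose and 3 to 8 fell.

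Those that fell were HMOX1, heme oxygenase, BHLHE40, a circadian repressor, and JMJD6, a dioxygenase. Their log2 fold changes were -0.29, -0.12 and -0.17 (limma adjusted p = 0.032, 0.021 and 0.020). HMOX1 failed once any library other than knockdown replicate 3 was left out (up to 0.11) and after the GC and length correction (0.054). BHLHE40 failed when knockdown replicate 1 or 2, or control replicate 2 or 3, was dropped (up to 0.071), and JMJD6 without knockdown replicate 1 or control replicate 1 or 3 (up to 0.070).

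**Figure D5:**
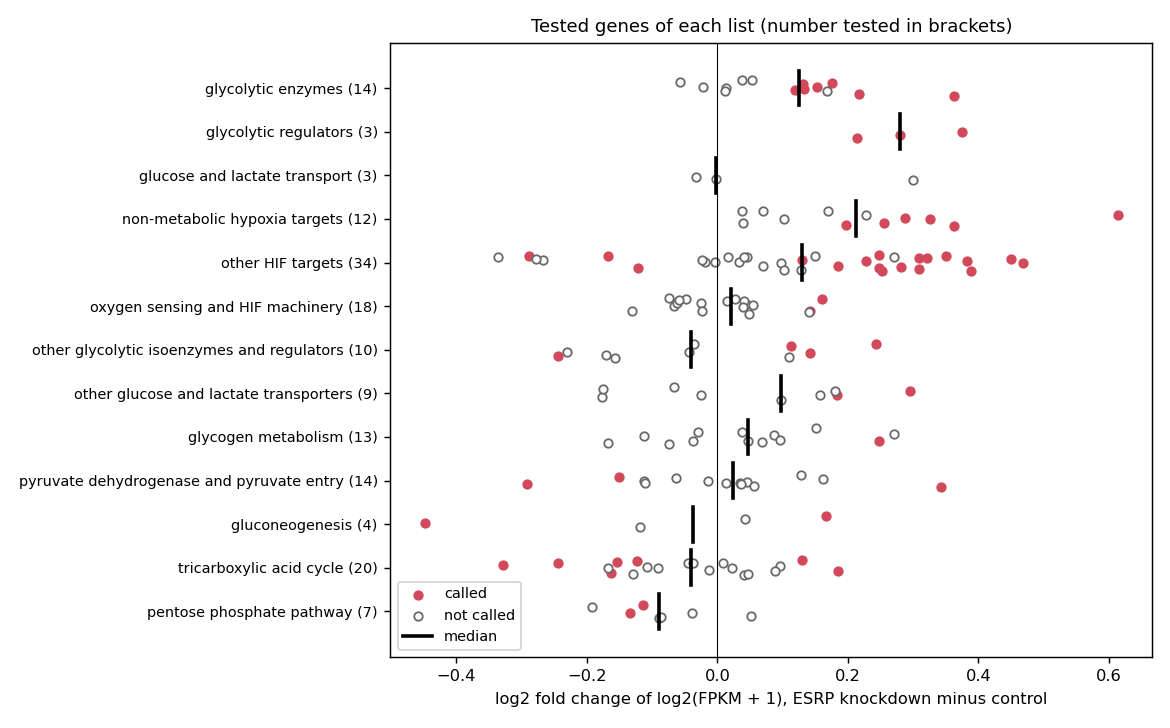
Log2 fold change of log2(FPKM + 1), ESRP knockdown minus control (horizontal axis), of every tested gene in the groups of members and in the further lists (rows, number tested in brackets; filled points were called, thick bars are medians). The hypoxia targets outside metabolism and the further HIF targets have medians of 0.21 and 0.13, while the tricarboxylic acid cycle and the pentose phosphate pathway have medians of -0.04 and -0.09.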

How the data were processed

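RNA-seq of H358 cells was deposited as FPKM per Ensembl gene and library, made by the authors from stranded paired-end mRNA libraries, per the labels' protocols. TopHat 1.4.1, Cuffdiff 2.2.0 and hg19 are named in the submitters' processing notes, which give neither annotation release nor strand setting. All libraries stood at 0 in 27772 of the 54607 rows. Starts, counted from 0 in the file, were raised by 1.

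From these values, log2(FPKM + 1) of the 13611 rows averaging at least 1 FPKM was fitted in limma 3.58.1 (R 4.3.3) with a two-sided moderated test and an intensity trend, knockdown minus control, without a replicate block, with Benjamini-Hochberg adjustment over all rows and a threshold of 0.05. This scale understates changes of low genes. GC content and length came from GENCODE v29 transcripts (96.6% of tested rows). Tried besides were no filter or a minimum of 5 FPKM, a pseudocount of 0.1, TPM or median-ratio scaling, no trend, a GC and length correction, a replicate block, and each library left out. Promoter windows came from RefSeq.

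The members, and all lists, were chosen with earlier results of these data known. All members were named, with every library for those called, and up to 4 called genes of each further list by smallest adjusted p plus those against its direction. The series' design text speaks of biological triplicates without naming separate cultures, so p-values measure the spread between these libraries, which may be partly technical.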

Additional observations from a re-analysis of the deposited data

How the results depend on the processing

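The 17 called members kept their sign in all 15 alternatives, and 10 of them (BNIP3, BNIP3L, NDRG1, KDM3A, EGLN3, PFKFB3, PFKFB4, PGK1, GPI and EPAS1) were called in every one. Total depth is not known, so no counting interval is given. The labels do not say whether a number marks a shared day or culture. Same-numbered deviations from the group means correlated at -0.017, 0.062 and 0.070. These values cannot settle whether the libraries are paired, since a small shared effect could give them too. With a replicate block all the same, 1433 rows were called in place of 2278, 12 members rose (GAPDH, TPI1, ALDOA, PGAM1 and MXI1 no longer passed, with adjusted p = 0.077, 0.072, 0.063, 0.052 and 0.056, while P4HA1 passed, at 0.041, or 0.031 with the GC and length correction added), 6 glycolytic members rose in place of 10, and 15 listed pathway genes rose and 7 fell in place of 25 and 14. With the GC and length correction and the block together 6 listed genes fell, and 16 members rose. With no filter 1413 rows, 6 glycolytic members and 16 rises and 6 falls of listed genes were called. Without the intensity trend 6 glycolytic members rose. Leaving out 1 library gave 1187 to 1983 rows called, 9 to 19 members higher, 4 to 11 glycolytic members, 5 to 8 hypoxia targets outside metabolism, 15 to 23 listed genes higher and 3 to 8 lower.

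Signs turned only for members that were not called. On the log2 scale these were PFKM after TPM scaling (-4.7e-04), ENO1 and SLC2A1 after the GC and length correction with or without the block (0.0020 and 5.6e-04), and SLC16A3 after median-ratio scaling (0.0042) and after that correction with or without the block (0.060). With 1 library left out the log2 fold change ran from -0.013 to 0.109 for ADM, from -0.021 to 0.051 for HK1 and from -0.025 to 0.015 for SLC16A3, and the HK2 to HK1 ratio difference from -0.024 to 0.078. The cause was not tested.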
